A study of Rattus norvegicus and Mus musculus with 22 samples.

Results

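The genes described here are 8 haemostasis genes of the vessel wall, of 23940 gene symbols counted in any of the 3 rat tables. They were taken by symbol: Adamts13, Vwf, F3, Thbd, Tfpi, Procr, Plat and Plau. Adamts13 and F3 were chosen by their measured falls in rats lacking Il6, in these same libraries, so the genotype differences of these 2 genes are given as values with no test. The other 6 members were tested. All 8 members were detected in whole lung and in sorted lung cells, and all 8 passed the filter on low counts in every fit.

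RNA was sequenced from 16 rat samples. All 16 samples carried the same Sugen-Hypoxia treatment, a model of pulmonary hypertension in which a blocker of VEGF receptors is combined with low oxygen, so no untreated lung stands beside them. The genotypes were wild type (WT) and a knockout of Il6, the gene of the cytokine interleukin 6 (IL6KO). For whole lung, each genotype had 3 libraries from day 7 and 3 from day 56. For CD4-positive lung cells, enriched with magnetic beads, each had 2 libraries from day 7. The labels give no strain, age or sex, do not say which segment of Il6 is missing, and do not say that numbered samples are separate animals. The p-values below therefore measure the spread between these samples, which may be technical.

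Von Willebrand factor, the product of Vwf, is a very large adhesive protein that endothelial cells store in Weibel-Palade bodies and release as long multimers that tether platelets. Adamts13 encodes the plasma protease that cuts these multimers into shorter and less adhesive ones, and loss of that protease causes platelet-rich clots in small vessels. Clotting itself starts from tissue factor (F3), is held back at the endothelial surface by tissue factor pathway inhibitor (Tfpi), thrombomodulin (Thbd) and the endothelial protein C receptor (Procr), and is undone by plasmin, which the tissue-type (Plat) and urokinase-type (Plau) activators produce.

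Total counts ran from 15011692 to 23590070 per day 7 lung library, from 14415060 to 22961232 at day 56 and from 11477533 to 12930732 in the CD4 isolates. At day 56 the WT 3 lung lay with the IL6KO lungs on the first principal component. It was at 14.2, against 12.5 to 19.3 in IL6KO and -34.7 and -28.1 in the other WT lungs. The day 56 values of most members are therefore also given without it. Cardiac muscle markers summed to 369 CPM in WT 3, 45.6 and 113 CPM in the other WT lungs and 283 to 580 CPM in IL6KO. Their part in this order was not tested. Endothelial marker genes summed to 3475 to 3554 CPM (the count relative to the TMM-scaled library size) in WT and 3648 to 3803 in IL6KO lung at day 7. Of 10, 1 was called higher in IL6KO there (Sox17), against 0.933% of all genes. Hepatocyte markers summed to at most 4.47 CPM in any lung library. In the CD4 isolates T cell markers summed to 1861 to 2092 CPM, beside 1681 to 2807 CPM of macrophage markers and 1172 to 3313 CPM of type 2 alveolar epithelial markers, so these isolates also held RNA of other lung cells. In bulk libraries, fewer cells of a type and less RNA per cell cannot be told apart. The levels below are not scaled by gene length and are not compared between genes.

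Adamts13 was the member with the largest difference between the genotypes in whole lung. At day 7 the WT lungs held 15.1, 17.4 and 16.1 CPM of Adamts13 and the IL6KO lungs 1.05, 0.848 and 1.69 CPM. These levels rest on 227, 409 and 258 counts in WT and on 19, 14 and 33 counts in IL6KO. The lowest WT lung stood far above the highest IL6KO lung. The means were 16.2 ± 1.15 and 1.20 ± 0.439 CPM (SD, n = 3 each), which is 13.5-fold lower in IL6KO, a log2 fold change of -3.73. The gene was picked for this fall, so its size is a description only. IL6KO lungs were not empty of the transcript, since each of them gave counts.

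The same order of genotypes held at day 56, when the WT lungs held 24.5, 13.01 and 12.1 CPM of Adamts13 and the IL6KO lungs 2.25, 2.20 and 1.88 CPM. WT 1 was the highest and the groups again did not overlap. The means were 16.5 ± 6.91 and 2.11 ± 0.198 CPM (SD, n = 3 each), 7.83-fold lower in IL6KO, with a log2 fold change of -2.97. Without the WT 3 lung the log2 fold change was -3.15, and without WT 1 it was -2.57. The 4 lung groups thus ranked with the IL6KO lungs of both days below the WT lungs of both days, and the WT lungs of days 7 and 56 overlapped.

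**Figure D1:**
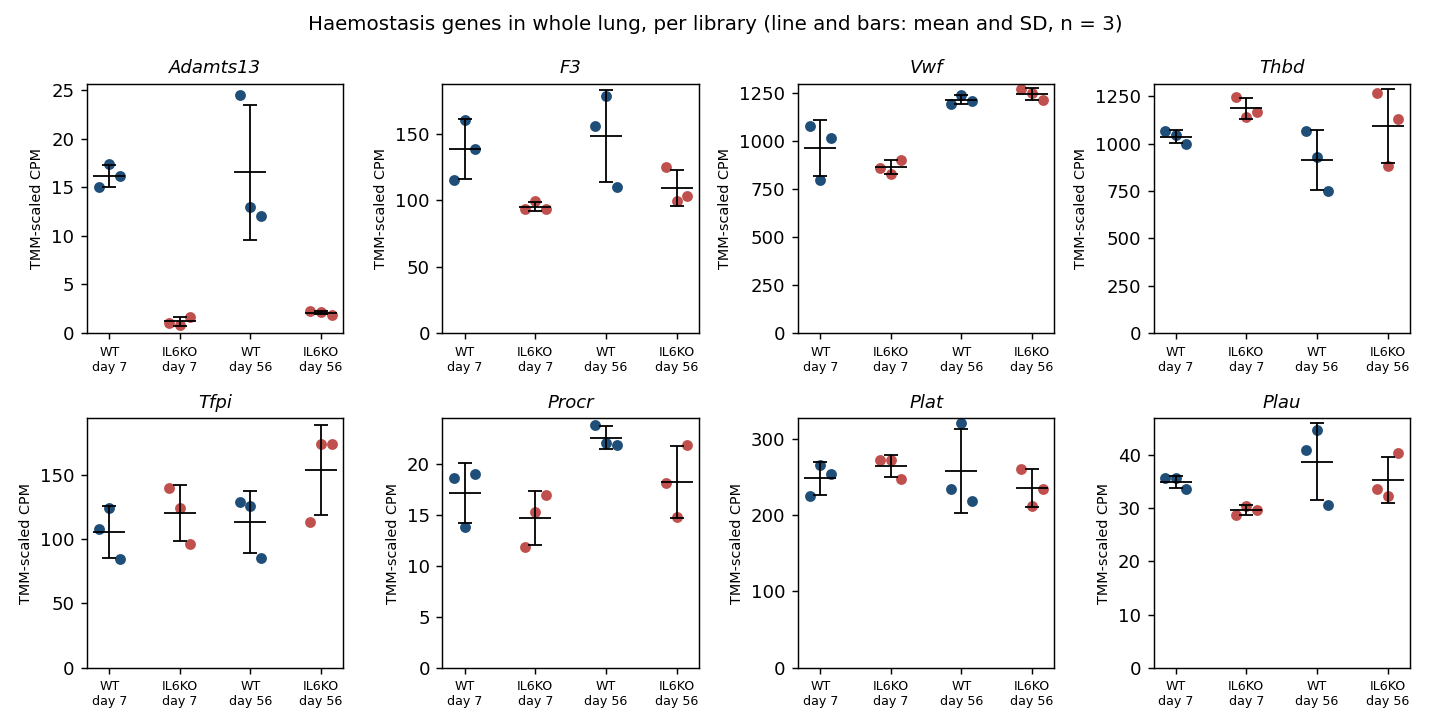
Level of each member in the 12 whole-lung libraries (vertical axes, TMM-scaled CPM from 0; horizontal axes, genotype and day; blue WT, red IL6KO). Points are libraries and the lines with bars are means with SD, n = 3. The tables of day 7 and day 56 were scaled separately. Adamts13 lies between 12.1 and 24.5 CPM in WT and at or below 2.25 CPM in IL6KO, while the genotype means of the other members lie closer together.

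To see where this gene sits, the 250 bases upstream of its start are shown, from RefSeq on the rat build GRCr8, plus strand, chr3:30697104-30697353. Capitals mark the matches to CACCC, the core bound by Krüppel-like factors, here read on the opposite strand as GGGTG.
Adamts13: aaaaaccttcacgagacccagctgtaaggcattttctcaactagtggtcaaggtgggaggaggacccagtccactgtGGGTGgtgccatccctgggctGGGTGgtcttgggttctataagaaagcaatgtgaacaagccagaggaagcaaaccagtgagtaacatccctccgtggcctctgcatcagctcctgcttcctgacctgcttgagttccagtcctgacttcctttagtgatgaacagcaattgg
Of 27457 rat promoters of the same length searched on both strands, 49.4% held CACCC, so its presence is common. The STAT motif TTCNNNGAA, a site type used by the STAT factors downstream of the interleukin 6 receptor, had no match in this window and was found in 7.52% of all promoters. AP-1 (TGANTCA, 6.36% of promoters), NF-kappaB (1.28%), the hypoxia response core ACGTG (16.9%), GGGCGG (32.4%) and TATAAA (13.1%) also had no match upstream of Adamts13. Among the members the table holds Adamts13, Tfpi, Plau and Procr, and the only match among these to STAT, AP-1, NF-kappaB or ACGTG was an AP-1 match upstream of Procr. A match or its lack describes these letters only.

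The neighbours of Adamts13 were read beside it. No tested neighbour differed as much in day 7 lung, which the choice of Adamts13 for its fall sets, and nothing is read from that. In the RefSeq gene order, 16 of the 20 nearest counted genes could be tested in day 7 lung, and their median log2 fold change was -0.03. Of these, 2 were called (edgeR, adjusted p under 0.05), against 2.09% of all genes tested, and both lie within 2 places of Adamts13. Rexo4, which encodes a putative exonuclease and is the next gene on one side, was at 37.7, 35.9 and 35.0 CPM in WT and rose to 60.9, 58.2 and 56.4 CPM in IL6KO (log2 fold change 0.69 with SE 0.07, edgeR adjusted p = 0.00227). Slc2a6, a glucose transporter gene, was at 11.3, 12.5 and 12.4 CPM in WT and fell to 5.98, 5.93 and 7.43 CPM in IL6KO (log2 fold change -0.90 with SE 0.13, edgeR adjusted p = 0.0131). The Slc2a6 call ended without WT 2 (adjusted p = 0.0553), without IL6KO 1 (0.0535) and without IL6KO 2 (0.0591). At day 56, edgeR called 0 of 15 tested neighbours, 4 had an unadjusted p under 0.05 and DESeq2 called 1 (Med22, lower). Adamts13 overlaps Cacfd1 and LOC102548484 in this annotation, and whether the counting used strand is not given in the sources used here, so reads of the overlap could be split. Cacfd1 was not called in lung.

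**Figure D2:**
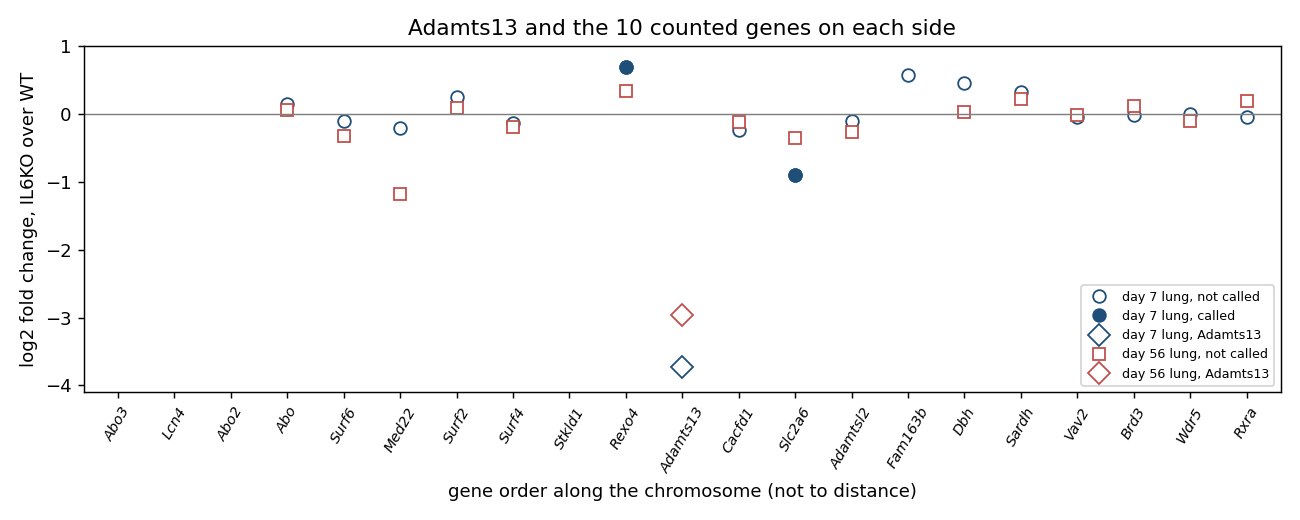
Log2 fold change of IL6KO over WT (vertical axis) for Adamts13 and the 10 counted genes on each side of it, in gene order (horizontal axis, not to distance); circles are day 7 and squares day 56, filled where called, and the diamonds are Adamts13. Adamts13 lies at -3.73 and -2.97, Rexo4 at 0.69 and Slc2a6 at -0.90 at day 7.

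For Vwf, the substrate of Adamts13, no difference between the genotypes passed the test. At day 7 the WT lungs held 1081, 799 and 1016 CPM of Vwf and the IL6KO lungs 863, 829 and 903 CPM. WT 2 was the lowest of all 6 and the groups overlapped. The log2 fold change was -0.16, with a 95% interval from -0.40 to 0.09 (edgeR, adjusted p = 0.600). At day 56 the 6 lungs lay close together, with 1197, 1242 and 1212 CPM in WT and 1273, 1252 and 1214 CPM in IL6KO. Their log2 fold change was 0.03, with an interval from -0.16 to 0.23 (edgeR, adjusted p = 0.878), and it was the same to 2 decimals without WT 3. Both intervals exclude a halving or a doubling of Vwf, whereas Adamts13, picked for its fall, differed 13.5-fold and 7.83-fold in the same libraries.

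F3, the receptor that starts clotting, was also picked for its fall. Day 7 WT lungs held 116, 161 and 139 CPM of F3 and IL6KO lungs 93.2, 99.4 and 93.1 CPM. Each IL6KO lung was below each WT lung, and the IL6KO lungs varied less. The means were 138 ± 22.6 and 95.2 ± 3.62 CPM (SD, n = 3 each), 1.45-fold lower in IL6KO (log2 fold change -0.54). At day 56 the WT lungs held 156, 179 and 110 CPM and the IL6KO lungs 125, 99.6 and 103 CPM, so WT 3 lay among the IL6KO lungs and the groups overlapped. The log2 fold change at day 56 was -0.44, with -0.61 without WT 3 and -0.29 without WT 2. Of the 18 tested neighbours of F3 in gene order, edgeR called 0 at day 7 (3 at an unadjusted p under 0.05, DESeq2 1) and 0 at day 56 (2 and 0).

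Of the surface anticoagulants, thrombomodulin stood a little higher in IL6KO at day 7 without passing adjustment. Thbd was at 1065, 1048 and 998 CPM in WT and 1249, 1142 and 1170 CPM in IL6KO, and the groups did not overlap. The log2 fold change was 0.20 (95% interval 0.03 to 0.36), with an unadjusted p of 0.0236 and an adjusted p of 0.250 in edgeR. At day 56 Thbd held 1069, 928 and 752 CPM in WT and 1270, 883 and 1130 CPM in IL6KO, which overlap (0.26, interval -0.16 to 0.67, adjusted p = 0.550). Leaving out WT 3, which had the lowest Thbd of the 6 lungs, gave 0.14.

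Procr, which presents protein C to the thrombin-thrombomodulin complex, was at 18.7, 13.8 and 19.1 CPM in WT and 11.9, 15.3 and 17.0 CPM in IL6KO at day 7. The groups overlapped, with a log2 fold change of -0.22 (interval -0.59 to 0.16, edgeR adjusted p = 0.654). At day 56 the WT lungs (23.9, 22.1 and 21.9 CPM) lay just above the IL6KO lungs (18.2, 14.8 and 21.9 CPM), with no overlap before rounding. The day 56 log2 fold change of Procr was -0.31 (interval -0.66 to 0.05, adjusted p = 0.460). Tfpi, which blocks the tissue factor complex, overlapped between the genotypes on both days. It held 108, 124 and 84.3 CPM in WT and 140, 124 and 96.5 CPM in IL6KO at day 7 (log2 fold change 0.19, interval -0.19 to 0.56, adjusted p = 0.712). At day 56 Tfpi held 129, 126 and 85.7 CPM in WT and 113, 174 and 174 CPM in IL6KO (0.44, interval -0.07 to 0.94, adjusted p = 0.457), and the difference was 0.27 without WT 3, the lowest lung.

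Neither plasminogen activator passed the test. Plau was at 35.7, 35.7 and 33.7 CPM in day 7 WT lung and at 28.7, 30.5 and 29.7 CPM in IL6KO, with no overlap. Its log2 fold change was -0.24 (interval -0.41 to -0.07), with an unadjusted p of 0.0105 and an adjusted p of 0.169 in edgeR. By day 56 the Plau groups overlapped, at 41.0, 44.7 and 30.6 CPM in WT and 33.6, 32.2 and 40.3 CPM in IL6KO (-0.13, interval -0.51 to 0.25, adjusted p = 0.731, and -0.27 without WT 3). Plat overlapped on both days. Its day 7 values were 225, 266 and 254 CPM in WT and 273, 273 and 248 CPM in IL6KO (0.09, interval -0.09 to 0.28, adjusted p = 0.721), and its day 56 values 235, 321 and 218 CPM in WT and 261, 212 and 235 CPM in IL6KO (-0.13, interval -0.51 to 0.25, adjusted p = 0.738). The day 56 sign of Plat rested on WT 2, without which the log2 fold change was 0.06. Plat overlaps Ikbkb and LOC108348292 in the annotation, Plau overlaps LOC120096900 and Tfpi overlaps LOC134486403. Reads of Plat, Plau and Tfpi could therefore be split as well.

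Counted together, edgeR called 0 of the 6 tested members in day 7 lung, where it called 2.09% of all genes. At an unadjusted p under 0.05 there were 2 (Thbd and Plau), beside 2045 of 14368 genes, and DESeq2 called 0. At day 56 edgeR called 0 of 6, against 0.0138% of all genes, with 0 at an unadjusted p under 0.05, beside 1649 of 14475 genes, and 0 by DESeq2. Without WT 3, when 8.63% of all genes were called, the count was still 0 of 6. The median log2 fold change of the 6 was -0.03 at day 7 and -0.05 at day 56, beside 0.00 and -0.01 over all genes. At day 7, Thbd lay wholly higher in IL6KO, as did 9.09% of all genes, and Plau wholly lower, as did 9.66%. Adamts13 and F3 also lay wholly lower at day 7, as their choice sets, and nothing is read from that. At day 56 Procr lay wholly lower, as did 8.55% of all genes, beside Adamts13, which was picked for its fall, and no member wholly higher, as did 8.3%. Leaving out 1 library at day 7 gave ranges of -0.28 (without WT 2) to -0.069 (without WT 1) for Vwf, -0.36 (without WT 2) to -0.084 (without IL6KO 1) for Procr, 0.049 to 0.32 for Tfpi and 0.025 to 0.14 for Plat. At day 56 the ranges were 0.14 to 0.39 for Thbd, -0.46 to -0.17 for Procr, 0.27 to 0.61 for Tfpi and -0.27 to -0.018 for Plau. None of these members was called in any of these fits.

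**Figure D3:**
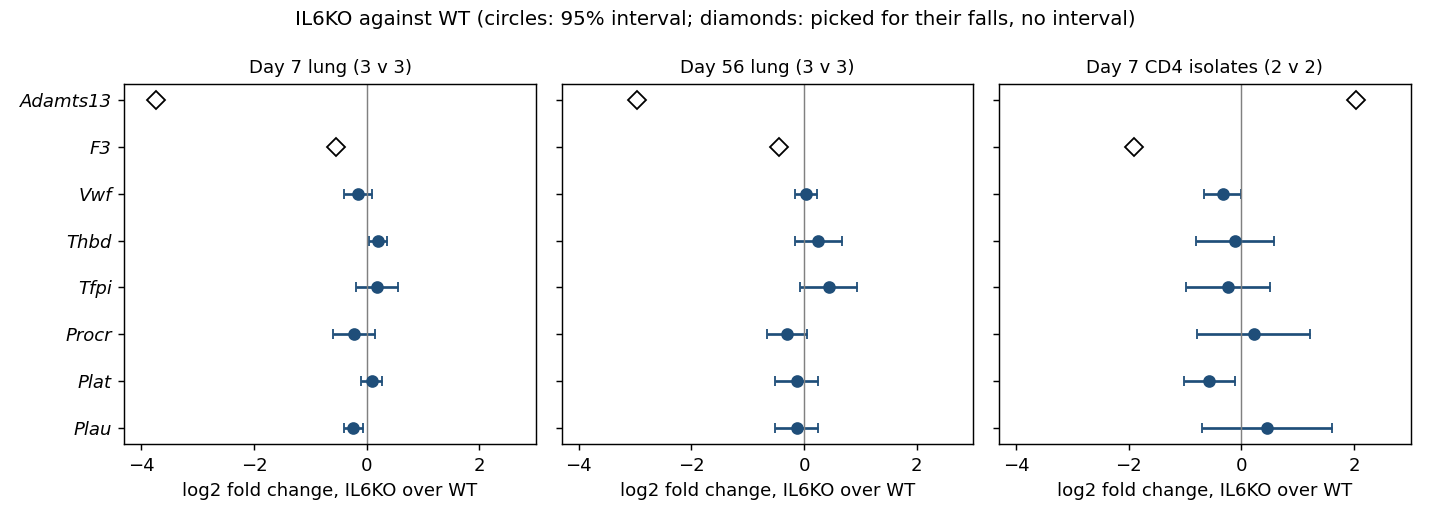
Log2 fold change of IL6KO over WT (horizontal axes) for each member (vertical axis) in day 7 lung, day 56 lung and day 7 CD4 isolates; circles carry 95% intervals, and diamonds are Adamts13 and F3, picked for their falls and shown without one. Adamts13 lies at -3.73 and -2.97 in lung and at 2.03 in the CD4 isolates, a value that depends on a WT library with 0 counts.

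Between the days, Vwf was called higher at day 56 in IL6KO lung and not in WT. Here all 12 lung libraries were fitted together, and day and count table cannot be told apart because each day has its own table. On this scale Vwf went from 930 ± 45.2 to 1310 ± 29.7 CPM in IL6KO lung (SD, n = 3 each), with no overlap. Its log2 fold change was 0.49 (SE 0.10, interval 0.27 to 0.72, edgeR adjusted p = 0.00982). In WT it went from 1038 ± 162 to 1275 ± 18.8 CPM, also with no overlap, a log2 fold change of 0.30 (interval 0.07 to 0.52) that missed adjustment in edgeR (adjusted p = 0.0735). The share of all genes with no overlap between the days was not counted, so nothing is read from the lack of overlap. The genotypes were not shown to differ in the rise of Vwf, since the interaction was 0.20 with an interval from -0.12 to 0.51 (adjusted p = 0.769). Leaving out IL6KO 2 of day 7 ended the IL6KO call (0.45, adjusted p = 0.0574). In WT, DESeq2 called the rise (adjusted p = 0.0296), as did edgeR without WT 1 of day 7 (0.38, adjusted p = 0.0465). Without WT 2 of day 7 the WT value was 0.17 (adjusted p = 0.242), and 1 of 12 fits that left out a library called it.

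The endothelial markers, from cells that make Vwf, moved both ways between the days. In IL6KO lung 2 of 10 were called higher and 2 lower, and in WT 3 higher and 3 lower, with median log2 fold changes of -0.02 and -0.00. Of the 6 tested members, Vwf alone was called in IL6KO between the days, against 8.32% of all genes and 3.4% higher. In WT edgeR called 0 of 6 against 14.8% of all genes (6.72% higher), with 1 at an unadjusted p under 0.05, beside 4151 of 13865 genes, and DESeq2 called 1. Procr went from 18.5 to 23.7 CPM in WT (0.36, interval -0.02 to 0.74, adjusted p = 0.191) and Plau from 31.9 to 37.2 CPM in IL6KO (0.22, interval -0.06 to 0.51, adjusted p = 0.353). Adamts13 was at 17.4 CPM on day 7 and 17.3 CPM on day 56 in WT. In IL6KO it was at 1.29 and 2.22 CPM with no overlap of the days, for which no share over all genes was counted. F3 was at 149 and 155 CPM in WT and at 102 and 115 CPM in IL6KO. The genotype by day interaction gave 0 calls among the 6 members in edgeR, with 0 at an unadjusted p under 0.05 and 0 by DESeq2. Over all genes edgeR called 0 for that interaction (0%), with 1043 at an unadjusted p under 0.05, and DESeq2 called 47.

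In the CD4 isolates the genotype order of Adamts13 was the opposite of that in lung. The WT isolates held 0 and 33.8 CPM of Adamts13 (0 and 437 counts) and the IL6KO isolates 92.3 and 48.3 CPM (1114 and 557 counts). Both IL6KO isolates were above both WT isolates, and WT 1, with 0 counts, stood apart. A count of 0 bounds the level in WT 1 at 0.263 CPM, taking 3 counts as the limit, and covers counting error only. Adamts13 was the only symbol at 0 in WT 1 that had at least 10 CPM in each of the other 3 isolates, and none of these other 3 had such a symbol. Because of that 0 the fitted log2 fold change of 2.03 depends on the prior count and is no measure of size. In IL6KO the isolates held 5876% of the mean lung level of Adamts13 at day 7, and in WT 104%, from tables that were scaled separately. The WT share averages the isolates at 0 and 33.8 CPM, neither of which was near the WT lung mean of 16.2 CPM. The IL6KO share divides by a lung mean of only 1.20 CPM.

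F3 kept the direction of the lung. The WT isolates held 25.3 and 19.6 CPM of F3 and the IL6KO isolates 5.14 and 6.77 CPM, with no overlap. Their means were 22.4 ± 4.05 and 5.95 ± 1.15 CPM (SD, n = 2 each), 3.77-fold lower in IL6KO (log2 fold change -1.91). As a sum, markers of type 2 alveolar epithelium, cells in which F3 is known to be expressed, moved the same way. They summed to 3313 and 2306 CPM in WT and 1187 and 1172 CPM in IL6KO. Of 6, 4 were called lower (Sftpb, Lamp3, Sftpc and Sftpa1), against 2.91% of all genes. Napsa went the other way (0.35, not called). Smooth muscle markers summed to 40.3 and 40.5 CPM in WT and to 20.7 and 16.9 CPM in IL6KO. The sum of macrophage markers moved the other way, from 1748 and 1681 CPM to 2327 and 2807 CPM. Of 5 tested, 3 were called higher (Csf1r, Adgre1 and Cd68), against 3.5% of all genes, while Cd14 was lower (-0.46, not called). The part of these cells in the F3 difference was not tested.

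**Figure D4:**
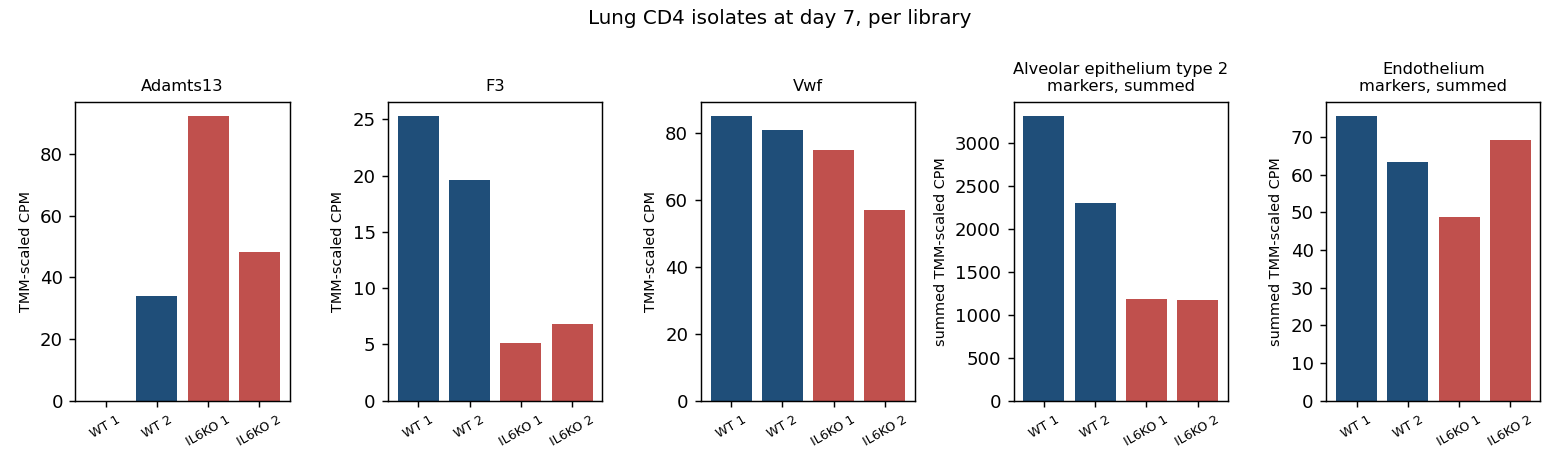
Adamts13, F3 and Vwf, and the summed markers of type 2 alveolar epithelium and of endothelium, in each of the 4 lung CD4 isolates (vertical axes, TMM-scaled CPM from 0; blue WT, red IL6KO; each bar is 1 library). Adamts13 is at 0 in WT 1 and highest in IL6KO 1 at 92.3 CPM, and F3 and the epithelial markers are lower in both IL6KO isolates.

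Vwf in the isolates was at 85.1 and 80.8 CPM in WT and 75.0 and 56.8 CPM in IL6KO. The groups did not overlap, and the log2 fold change of -0.33 (interval -0.65 to -0.01) missed adjustment in edgeR (adjusted p = 0.204). Vwf stood at 8.59% of its day 7 lung level in WT isolates and 7.62% in IL6KO, where the endothelial markers stood at 1.97% and 1.58%. These markers summed to 75.6 and 63.4 CPM in WT and 48.8 and 69.3 CPM in IL6KO. Of 7 tested, 1 was called lower (Cdh5), against 2.91% of all genes, and Cldn5 was at 0 in both IL6KO isolates. Platelet markers, from cells that also carry Vwf, summed to 12.3 and 19.2 CPM in WT and 13.9 and 26.1 CPM in IL6KO. Without IL6KO 1 the Vwf difference was called (-0.55, adjusted p = 0.0155), and without IL6KO 2 it was -0.14 (adjusted p = 0.541). The part of endothelial or platelet RNA in it was not tested.

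Plat went from 16.3 and 12.7 CPM in WT to 8.70 and 10.8 CPM in IL6KO, with no overlap (-0.57, interval -1.02 to -0.11, edgeR adjusted p = 0.134). Plau, which macrophages are known to make, stood at 87.8% of its lung level in the WT isolates and 142% in IL6KO. It held 26.9 and 34.6 CPM in WT and 29.2 and 55.2 CPM in IL6KO, which overlap (0.45, interval -0.69 to 1.60, adjusted p = 0.566). IL6KO 2 had the highest Plau and the highest macrophage marker sum (2807 CPM). WT 2 had the next highest Plau but the lowest sum (1681 CPM), and IL6KO 1, with a sum of 2327 CPM, held less Plau than WT 2. The part of macrophages in the Plau values was not tested. Without IL6KO 1 the Plau difference was called (0.84, adjusted p = 0.0179), while without IL6KO 2 it was -0.07. Thbd (33.9 and 24.1 CPM in WT, 21.5 and 32.1 in IL6KO), Tfpi (7.18 and 6.88, then 4.06 and 7.90) and Procr (2.80 and 1.47, then 1.91 and 3.04) overlapped, with adjusted p of 0.844, 0.707 and 0.803. In all, edgeR called 0 of the 6 tested members in the isolates against 6.4% of all genes (3.5% higher and 2.91% lower), with 2 at an unadjusted p under 0.05 (Vwf and Plat), beside 2871 of 12243 genes, and 0 by DESeq2. Vwf and Plat lay wholly lower in IL6KO, as did 28.8% of all genes. Adamts13 lay wholly higher, as did 27.2%, and F3 wholly lower, and nothing is read from these picked genes.

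The partners of the members were read from lists of haemostasis genes. Of the fibrinolysis genes, Serpine2 was lower in IL6KO lung at day 7. Serpine2 encodes a protease inhibitor that acts on thrombin and urokinase. It was at 47.1, 58.2 and 68.9 CPM in WT and fell to 31.9, 38.3 and 32.2 CPM in IL6KO (log2 fold change -0.77, SE 0.14, edgeR adjusted p = 0.0272). Its groups did not overlap. The Serpine2 call was lost without WT 2 (adjusted p = 0.0825), IL6KO 1 (0.0941), IL6KO 2 (0.0547) and IL6KO 3 (0.0768).

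Among 7 tested clotting factor and fibrinogen genes at day 7, 1 was called lower, Fgg, and 0 higher, against 1.16% of all genes lower and 0.933% higher. Fgg encodes the fibrinogen gamma chain, an acute-phase gene that interleukin 6 is known to induce. Its level went from 100, 118 and 118 CPM in WT to 72.2, 61.0 and 62.5 CPM in IL6KO (-0.78, SE 0.09, edgeR adjusted p = 0.00569), and the call held in 6 of 6 fits that left out a library. The listed platelet receptor genes, 4 that encode subunits of Vwf receptors (Gp1ba, Gp9, Itga2b and Itgb3) and Gp6, which encodes a collagen receptor, all had positive values, from 0.16 to 1.57 with a median of 0.73. The highest value was that of Gp6, which rests on low levels, 0.332, 0.594 and 0.500 CPM in WT and 2.05, 0.727 and 1.59 CPM in IL6KO. Gp1ba was also low, at 1.06, 0.764 and 0.812 CPM in WT and 1.72, 1.57 and 1.95 CPM in IL6KO. EdgeR called 0 of the 5 receptor genes, with 3 at an unadjusted p under 0.05, and DESeq2 called Itga2b higher. Itga2b, a fibrinogen and Vwf receptor subunit of platelets, was at 5.64, 7.04 and 5.31 CPM in WT and 10.9, 7.51 and 11.6 CPM in IL6KO (0.73, edgeR adjusted p = 0.0955). Platelet markers, a list that shares Itga2b and Gp9 with the receptors, summed to 15.8 to 19.3 CPM in WT and 20.1 to 29.5 CPM in IL6KO, and the part of platelets in these values was not tested.

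The remaining lists held no edgeR call at day 7. Counts at an unadjusted p are to be read beside the 2045 of 14368 genes that reached it at day 7 and the 1649 of 14475 at day 56. The thrombin receptors gave 0 of 4 (1 at an unadjusted p under 0.05, DESeq2 1, F2rl1 lower), other anticoagulants 0 of 5 (1, DESeq2 0) and Weibel-Palade body genes, which package and release Vwf, 0 of 11 (1, DESeq2 0). The 11 Weibel-Palade body genes ranged from -0.21 to 0.26 with a median of -0.02. The other ADAMTS proteases, relatives of Adamts13, gave 0 of 16 (3, DESeq2 1, Adamts4 lower) and ranged from -0.67 to 0.44 with a median of 0.05.

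**Figure D5:**
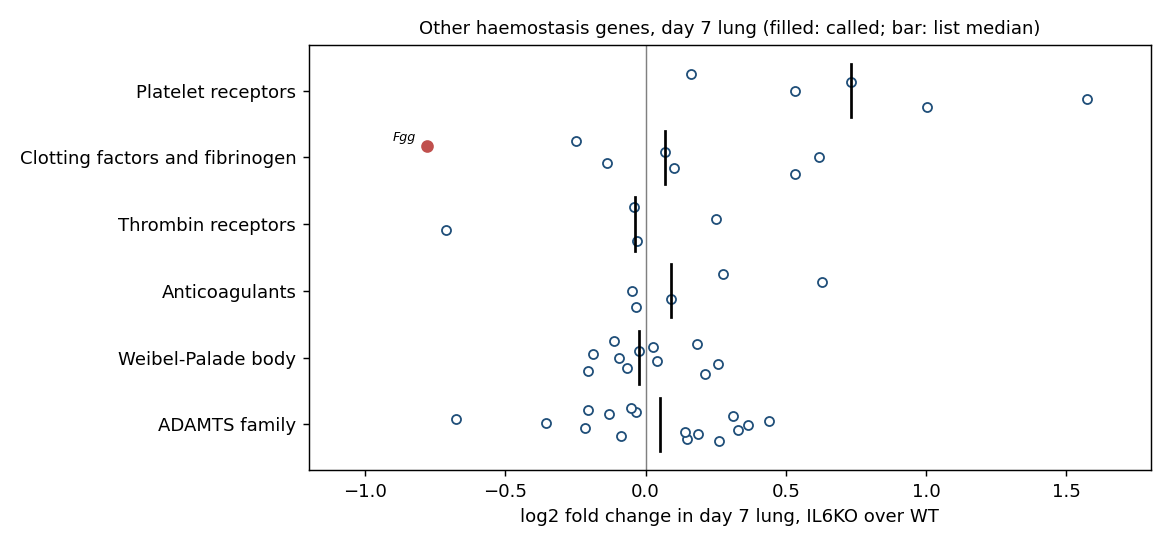
Log2 fold change of IL6KO over WT in day 7 lung (horizontal axis) for haemostasis genes in 6 lists, without the fibrinolysis genes (vertical axis); each circle is a gene, filled where called, and bars are list medians. Fgg (-0.78) is filled, and the ADAMTS relatives lie between -0.67 and 0.44.

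At day 56 edgeR called 0 genes in each of these lists against 0.0138% of all genes. At an unadjusted p under 0.05 there were 3 of 5 platelet receptors, 2 of 7 clotting genes, 2 of 4 thrombin receptors, 0 of 5 anticoagulants, 1 of 10 fibrinolysis genes, 1 of 11 Weibel-Palade body genes and 2 of 14 ADAMTS genes. DESeq2 called Serpine2 alone, which held 42.0, 40.4 and 45.4 CPM in WT and 26.2, 26.1 and 19.8 CPM in IL6KO with no overlap (-0.82, edgeR adjusted p = 0.267). Fgg overlapped between the genotypes, at 106, 95.5 and 106 CPM in WT and 84.0, 116 and 130 CPM in IL6KO. Without WT 3, edgeR called Itgb3 and F5 higher and Serpine2 lower in IL6KO, when it called 8.63% of all genes.

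In the CD4 isolates edgeR called 2 of 5 clotting genes, 1 of 4 thrombin receptors and 1 of 9 Weibel-Palade body genes, all lower in IL6KO. Of all genes, 2.91% were called lower and 3.5% higher. Among 3 platelet receptors, 3 anticoagulants, 8 fibrinolysis genes and 10 ADAMTS genes it called 0. The median log2 fold changes of the lists ran from -0.99 (ADAMTS) to 0.14 (Weibel-Palade body). Fgg went from 12.3 and 10.1 CPM in WT to 1.49 and 2.17 CPM in IL6KO (-2.61, edgeR adjusted p = 0.00514), and F5, the gene of clotting factor V, from 31.4 and 32.6 to 18.3 and 17.5 CPM (-0.84, adjusted p = 0.00899). F2r, a thrombin receptor gene, fell by 0.80 (adjusted p = 0.0180) and Igfbp7, listed with the Weibel-Palade bodies, by 1.20 (adjusted p = 0.0227). Without WT 1 these 4 calls ended (adjusted p of 0.0568 for Fgg, 0.0747 for F5, 0.105 for F2r and 0.165 for Igfbp7), and without WT 2 those of F5 (0.0732), F2r (0.115) and Igfbp7 (0.0616) did. The type 2 epithelial and smooth muscle markers given above summed to less in the same IL6KO isolates, and their part in these calls was not tested.

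Between the days, 3 ADAMTS relatives that act on collagen or cartilage proteins were lower at day 56 in both genotypes. Adamts12 fell from 81.7 to 30.3 CPM in WT (-1.43, edgeR adjusted p = 5.09e-06) and from 76.8 to 28.6 CPM in IL6KO (-1.42, adjusted p = 6.81e-06). Adamts2, the procollagen protease gene, fell by 1.35 in WT and 1.04 in IL6KO, and Adamts7 by 1.14 and 1.00. In the separately scaled tables, fibroblast markers summed to 1972 to 2804 CPM at day 7 and 695 to 896.2 CPM at day 56 in WT, and to 1585 to 2017 and 649.5 to 753.9 CPM in IL6KO, with 1 of 3 called lower in each genotype (Col1a1). Smooth muscle markers summed to 1704 to 1870 and 1016 to 1482 CPM in WT, and to 1594 to 1650 and 875.9 to 1132 CPM in IL6KO, with 3 of 4 called lower in each (Acta2, Cnn1 and Tagln). The part of these cells in the ADAMTS values was not tested. In WT 6 of 16 ADAMTS genes were called lower against 8.05% of all genes, the others by smallest p being Adamts17 and then Adamts19 and Adamts18, and in IL6KO 3 of 16 against 4.92%. In the fibrinolysis list 3 of 10 were called lower in each genotype, among them Thbs1, which fell from 212 to 93.7 CPM in WT (-1.18, adjusted p = 7.74e-05). Fgg rose from 70.2 to 116 CPM in IL6KO (0.72, adjusted p = 0.00650) and was at 120 and 107 CPM in WT. In the test of the difference between genotypes, edgeR did not call Fgg and DESeq2 did. The F2r gene fell by 0.46 in WT and 0.63 in IL6KO, and the WT call was lost without WT 1 of day 56 (adjusted p = 0.0513).

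The genes whose pattern was most like that of a member were found over the 12 lung libraries, after each day's mean was subtracted, as Pearson's r of log2(CPM + 1) over 12555 genes. Adamts13 was followed most closely by Retsat (0.97), Ccdc28b (0.97) and Emg1 (0.94). For F3 they were Tmed9 (0.97), S100a11 (0.96) and Spcs1 (0.95), and for Thbd Itgb6 (0.88), Dnm3 (0.87) and Hdc (0.87). Vwf was closest to Il13ra1 (0.92), Grik4 (0.90) and Coch (0.89). Among the members, Adamts13 and F3 had an r of 0.80, which their choice for the same fall sets in part, and Adamts13 and Vwf 0.27. These are descriptions over libraries that share their genotype groups. Genotype means were not subtracted, so the falls for which Adamts13 and F3 were picked also enter the r of the genes most like them.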

How the data were processed

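The rat tables hold raw counts per gene, which the authors deposited with 1 column per sample. Per the submitters' processing notes the build was GRCm38, a mouse build, also for the rat samples; the aligner, counter and strand setting were not given in the sources used here. Spleen samples of mice were not used here. The members and the gene lists were chosen with earlier results of these data known. Counts were filtered (filterByExpr), scaled by TMM and tested with edgeR 4.0.16 (quasi-likelihood, robust) in R 4.3.3, separately per table, and over the 12 lung libraries for the days and the interaction. A gene was called at a Benjamini-Hochberg adjusted p under 0.05 over all genes tested. SE is the standard error of a log2 fold change and positive values are higher in IL6KO or at day 56. No SE, interval or p is given for Adamts13 and F3. Genes named were the members, up to 4 called genes per list by smallest p, called genes among the 10 neighbours on each side of Adamts13 and F3, and the 3 most alike genes. Genes named outside this rule were chosen after their values were seen. Alternatives were DESeq2 1.42.0, RLE size factors, no filter, a mean of at least 5 CPM, blocking on replicate number and, in turn, each library left out; day 56 lists without WT 3 were added after the data were seen. The fits were tested on simulated data: 86% of genes simulated with a log2 change of 1 were recovered in day 7 lung, 62% in day 56 lung and 76% in the CD4 isolates, and 8.59%, 9.94% and 12.95% of the calls there were false, above the 5% that the threshold aims at. No 2 libraries were identical. Promoters come from RefSeq (GRCr8), for 4 of the 8 members. A further result of the fibrinolysis list is not reported here.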

Additional observations from a re-analysis of the deposited data

Results flagged for a closer look

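Adamts13 moved in opposite directions in 2 kinds of sample. Every IL6KO library was below every WT library in day 7 lung (log2 fold change -3.73) and above every WT library in the day 7 CD4 isolates (2.03, a fitted value that depends on the WT isolate with 0 counts). Rexo4, the gene next to Adamts13, was wholly higher in IL6KO lung (0.69) and wholly lower in IL6KO isolates (-0.27, not called, edgeR adjusted p = 0.165). F5, the gene of clotting factor V, did the same, with 0.62 in day 7 lung, not called, and -0.84 in the isolates. Of all genes tested, 9.09% lay wholly higher and 9.66% wholly lower in IL6KO day 7 lung. In the isolates these shares were 27.2% and 28.8%, so lying wholly to one side was common. The difference between lung and isolates was not tested for any of these 3 genes.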

How the results depend on the processing

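With 3 libraries a group, or 2 in the isolates, small differences were not detectable, and the intervals given are the measure of what remained possible. DESeq2 called 565 genes for IL6KO against WT in day 7 lung, 175 for IL6KO against WT in day 56 lung and 47 for the interaction, where edgeR called 300, 2 and 0. Without a filter on low counts edgeR called 7 at day 56. Among the 6 tested members DESeq2 called 1 between the days in WT (Vwf). Same-numbered WT and IL6KO samples correlated at 0.08, 0.13 and 0.32 in day 7 lung. At day 56 the values were -0.21, -0.10 and -0.01, and in the isolates 0.02. With so few samples a group, these values cannot settle whether the numbers pair the samples. With the replicate block 543 genes were called at day 7 and 0 at day 56, where the main fit called 300 and 2. Leaving out 1 library gave 94 (without IL6KO 2) to 372 calls in day 7 lung, 1 to 1268 (without WT 3) at day 56, 76 (without WT 1) to 970 in the isolates, 1235 to 3656 and 704 to 1666 between the days in WT and IL6KO, and 0 to 597 for the interaction, the last and the 3656 without WT 3 of day 56. Members called ranged from 0 to 2 in the isolates (2 without IL6KO 1), from 0 to 1 between the days in each genotype, and were 0 in the other comparisons. Without 1 isolate, the lone sample left is assumed to vary like the other group. No member that was called turned its sign. Of the tested members not called, the sign turned in at least 1 fit that left out a library for Plat at day 56 (-0.23 to 0.057), in the isolates for Thbd (-0.42 to 0.15), Tfpi (-0.78 to 0.16), Plau (-0.067 to 0.84) and Procr (-0.18 to 0.74), between the days in WT for Plat (-0.17 to 0.13), Tfpi (-0.068 to 0.24) and Plau (-0.0038 to 0.26), and in the interaction for Thbd (-0.060 to 0.21), Plau (-0.031 to 0.21) and Procr (-0.23 to 0.061). The untested F3 turned its sign between the days in WT (-0.092 to 0.24) and in the interaction (-0.074 to 0.24), and Adamts13 between the days in WT (-0.41 to 0.17). Adamts13 stayed between -4.08 and -3.55 in day 7 lung, -3.15 and -2.57 at day 56 and 1.06 and 12.7 in the isolates. Of 1269 values of single genes under an alternative, 1128 were counted as unchanged. For tested genes this meant the same sign and the same side of the threshold, and for Adamts13 and F3 a move smaller than the spread. The cause of the other changes was not tested.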
